A study of Mus musculus with 4 samples.

Results

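Integrins are cell-surface adhesion receptors made of 1 alpha and 1 beta chain, and the set described here holds 10 of their genes: Itgae, Itgam, Itgax, Itgal, Itga4, Itgb2, Itgb7, Itgav, Itgb5 and Itgb8. They were chosen by name, as the chains of leukocyte integrins and the alphaV partners that bind latent TGF-beta, from the 32285 features of the count tables. All 10 were found, and the other 17 integrin chains of the tables were used for comparison. The 4 libraries came from cells of the mouse colon at steady state, enriched with CD11b (Itgam protein) beads and run by droplet single-cell RNA sequencing. The groups were Csf2-/- SILT, wild-type SILT, Csf2-/- lamina propria and wild-type lamina propria, with 1 library each. SILT are the solitary isolated lymphoid tissues of the colon, small clusters of immune cells in the mucosa, and the lamina propria is the connective tissue beneath the epithelium. Csf2 encodes the cytokine GM-CSF, which myeloid cells sense. The full genotypes were Csf2-/-:CX3CR1-GFP/+:CCR2-RFP/+ and Csf2+/+:CX3CR1-GFP/+:CCR2-RFP/+, so mice of both genotypes carried the 2 reporter alleles. The design text names 5 mice, the labels give no age, and how mice were pooled into a library is not given in the sources used here.

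Each integrin alpha chain pairs with a small choice of beta chains, and the pair sets the ligand. The beta2 chain (Itgb2, CD18) pairs with Itgal to make LFA-1, with Itgam to make Mac-1 (CD11b/CD18) and with Itgax to make CD11c/CD18, which serve adhesion to ICAM molecules and, for Itgam and Itgax, uptake of complement-coated particles. The beta7 chain pairs with Itgae (CD103) to bind E-cadherin on epithelium, and with Itga4 to bind MAdCAM-1 on gut vessels. The alphaV chain (Itgav) pairs with Itgb5 or Itgb8, and alphaV-beta8 is known to release active TGF-beta from its latent form. In the mouse intestine, CD103 and CD11b are the usual surface proteins by which dendritic cells are split into subsets, and CD11c is used to gate dendritic cells and some macrophages.

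Values are CPM, the UMIs (counted molecules) of a gene per 1000000 UMIs summed over all cells of a class in a library, and shares are the percentage of cells with at least 1 UMI. With 1 library a group there is no replicate and no test between groups: intervals are exact 95% intervals that cover counting error only, and no p-value is given. Libraries differed in size, with 2368 cells kept in Csf2-/- SILT, 7578 in wild-type SILT, 1967 in lamina propria of Csf2-/- mice and 4439 in that of wild-type mice, and median UMIs per cell of 7184, 5816.5, 8892 and 9961 in the same order. Pairs of libraries shared between 3 and 19 cell barcodes. Csf2 had 0 UMIs in both Csf2-/- libraries, 24 in wild-type SILT and 2 in wild-type lamina propria. The CD11b selection was partial: classes under 10 CPM of Itgam held 24.1% of cells in Csf2-/- SILT, 36.0% in wild-type SILT, 33.7% in lamina propria of Csf2-/- mice and 36.1% in that of wild-type mice. Cell classes were rebuilt by clustering without any integrin gene and named "-like" from markers, so names can differ from the study's own.

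The wild-type SILT library stood apart from the others for these genes. Over macrophage-, monocyte-, cDC2- and cDC1-like cells and a dividing cluster, it had the lowest of the 4 levels in 26 of 41 pairs of member and class, against 8 for Csf2-/- SILT, 5 for Csf2-/- lamina propria and 2 for wild-type lamina propria. For Itgb2, Itgb7 and Itgav it was lowest in all 5 classes. Itgae went the other way, highest in wild-type SILT in 2 of 3 classes. The 41 pairs share the same 4 libraries, and the like count over all genes is not given here. Medians over all genes also leaned to low values in wild-type SILT: in macrophage-like cells the SILT over lamina propria ratio in wild type was 0.849 and the Csf2-/- over wild-type ratio in SILT 1.05. The median log2 ratio of members, SILT over lamina propria in wild type, was -0.23 in macrophage-like cells, against -0.24 for all genes. It was -0.51 against -0.24 in monocyte-like cells and -0.49 against -0.23 in cDC2-like cells. For Csf2-/- over wild type in SILT it was 0.33 against 0.06, 0.52 against 0.12 and 0.25 against 0.04 in the same order of classes. What sets this library apart cannot be told apart from its group, and each comparison with wild-type SILT rests on it.

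By count of UMIs, Itgae was mainly a dendritic cell transcript among these CD11b-selected cells. Itgae (chr11:73090583-73147446, plus strand, GRCm38) encodes CD103, the alpha chain that binds E-cadherin. Of 912 Itgae UMIs in all cells, cDC1-like cells held 44.8%, migratory dendritic cell-like cells of SILT 19.96%, the dividing cluster led by Top2a, Nusap1 and Hist1h3c 12.7% and cDC2-like cells 9.43%. These shares depend on class size as well as level. The cluster led by Gzma, Nkg7 and Trbc2, genes of cytotoxic lymphocytes, had 25.5 CPM (20 UMIs in 145 cells) in wild-type SILT. In Csf2-/- SILT it had 14.0 CPM (4 UMIs in 43 cells). Both were above the cDC2-like level of the same library, 10.95 CPM and 0. Macrophage-like cells had 0.19, 0.564, 0 and 1.10 CPM in Csf2-/- SILT, wild-type SILT, Csf2-/- lamina propria and wild-type lamina propria. In blood endothelial-like cells, which should lack the gene, at most 0.859% of cells in any library had an Itgae UMI.

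cDC1 are the dendritic cells that take up dying cells and present their antigens to CD8 T cells, and the class was well marked, with Xcr1, their chemokine receptor, at 330 CPM in Csf2-/- SILT, 358 in wild-type SILT, 404 in lamina propria of Csf2-/- mice and 357 in that of wild-type mice. Itgae reached 29.98 CPM (18.6 to 45.8, 21 UMIs in 47 cells) in Csf2-/- SILT, against 234.6 CPM (209 to 262, 311 UMIs in 95 cells) in wild-type SILT. It reached 40.8 CPM (26.7 to 59.8, 26 UMIs in 37 cells) in Csf2-/- lamina propria, against 165 CPM (123 to 217, 51 UMIs in 20 cells) in wild-type lamina propria. Both Csf2-/- libraries were thus low and both wild-type libraries high, with no overlap of the counting intervals. The Csf2-/- over wild-type ratio was 0.128 (0.0780 to 0.199) in SILT and 0.247 (0.148 to 0.403) in lamina propria. Over all cells, the sex-linked genes Xist (female) and Ddx3y (male) also split the libraries by genotype. Xist stood at 582 CPM for Csf2-/- against 266 for wild type among SILT libraries, and at 825 against 392 among lamina propria ones. Ddx3y stood at 31.8 CPM against 38.4, and at 28.1 against 58.4, in the same order. The part of sex in the Itgae difference was not tested.

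The share of cDC1-like cells with an Itgae UMI was 21.3% (10.7 to 35.7) in Csf2-/- SILT, against 65.3% (54.8 to 74.7) in wild-type SILT. In lamina propria it was 24.3% (11.8 to 41.2) in Csf2-/- cells, against 65.0% (40.8 to 84.6) in wild-type cells. Median depth of these cells lay between 14260 and 17167 UMIs in the 4 libraries. After thinning every cell to 1000 UMIs the shares were 4.26% in Csf2-/- SILT against 20.2% in wild-type SILT, and 8.11% in Csf2-/- lamina propria against 15% in wild-type lamina propria, and their intervals overlapped within each tissue. Cells with many Itgae molecules were mostly wild type. At least 5 Itgae UMIs were found in 0 of 47 Csf2-/- SILT cells, for which the exact interval reaches 7.55%, against 34 of 95 wild-type SILT cells. They were found in 2 of 37 Csf2-/- lamina propria cells, against 4 of 20 wild-type lamina propria cells.

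Set beside all genes in the same cells, Itgae stood near the bottom of the ranking of Csf2-/- over wild-type ratios. In SILT it ranked 23 from the lowest of 5760 genes with at least 30 UMIs over both libraries, and in lamina propria it ranked 3 of 3939. Taking 1.5-fold as the size that counts as a difference, 1 of the 8 members tested in SILT cDC1-like cells was lower in Csf2-/- (Itgae), where 9.83% of all genes were. In lamina propria 2 of 7 were lower (Itgae and Itga4), where 14.8% of all genes were. The 8 marker genes of the class had Csf2-/- over wild-type ratios between 0.559 and 1.48 in SILT and between 0.543 and 2.42 in lamina propria. Gcsam (0.559 in SILT and 0.543 in lamina propria), Ifi205 (0.664 and 0.601), Clec9a (0.650 and 0.689) and Tlr3 (0.861 and 0.563) were lower in Csf2-/- in both tissues. Cadm1 and Snx22 were higher in both, and Xcr1 and Wdfy4 differed in direction between tissues. Of the T cell genes that could bring Itgae into the class, Trac was at 0 in all 4 libraries and Cd3e had 1 UMI in wild-type SILT and 0 elsewhere. Cd8a, a T cell marker of the same list, had 1 UMI in Csf2-/- SILT against 11 in wild-type SILT. In lamina propria it had 0 in Csf2-/- against 1 in wild type. The part of T cell RNA in the Itgae difference was not tested. Haspin, a kinase gene on the opposite strand inside Itgae, had 1 UMI in Csf2-/- SILT, 1 in wild-type SILT, 2 in lamina propria of Csf2-/- mice and 0 in that of wild-type mice. Proliferation marker Mki67 stood at 38.5 CPM in Csf2-/- SILT against 26.4 in wild-type SILT, and at 28.3 CPM in Csf2-/- lamina propria against 110 in wild-type lamina propria, and its part in the Itgae difference was not tested. Blood endothelial marker genes summed to 37.1 CPM in Csf2-/- SILT cells and 316 CPM in wild-type SILT cells of the class, likewise not tested.

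A gate that used no clustering, but markers of the class and mostly the same cells, gave like values. Cells with a UMI of both Xcr1 and Clec9a, the latter a receptor for dead cells, numbered 38 in Csf2-/- SILT, 93 in wild-type SILT, 39 in lamina propria of Csf2-/- mice and 23 in that of wild-type mice. In the same order 31, 69, 30 and 17 of them were in the cDC1-like class, so like values were to be awaited. The Itgae level of the gated cells was 24.5 CPM in Csf2-/- SILT against 197 CPM in wild-type SILT, and 34.7 CPM in Csf2-/- lamina propria against 145 CPM in wild-type lamina propria. The lamina propria ratio depended on where the class ended: under a stricter cell filter and under finer clustering the class took in part of the dividing cluster, held 74 and 83 wild-type lamina propria cells in place of 20, and had ratios of 0.721 and 0.588.

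**Figure D1:**
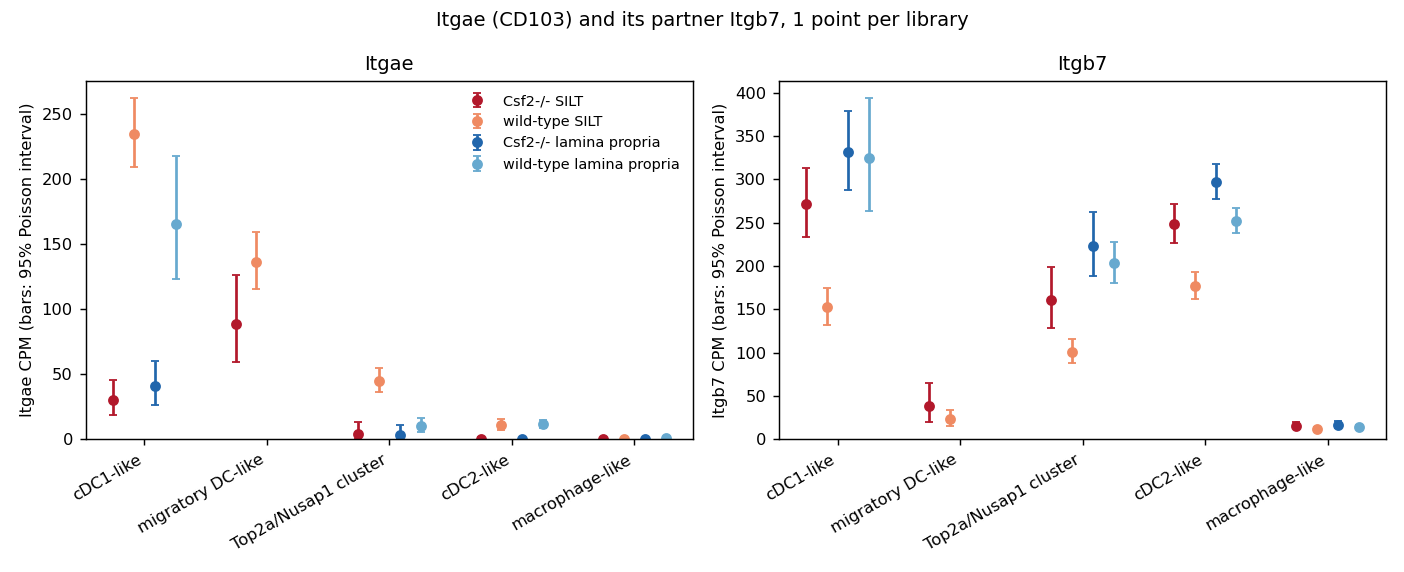
Itgae (left) and Itgb7 (right) in CPM for 5 classes, 1 point per library with its exact 95% Poisson interval. In cDC1-like cells the Itgae points of both Csf2-/- libraries lie at 29.98 and 40.8 CPM and those of both wild-type libraries at 234.6 and 165 CPM, whereas for Itgb7 wild-type SILT is the low point.

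cDC2-like cells also had less Itgae in both Csf2-/- libraries than in the wild-type library of the same tissue, at lower levels than cDC1-like cells. In these cells, the CD11b-rich dendritic cells marked here by Cd209a, Itgae had 0 UMIs in 211 Csf2-/- SILT cells, against 30 UMIs (10.95 CPM) in 314 wild-type SILT cells. It had 0 UMIs in 275 Csf2-/- lamina propria cells, against 56 UMIs (11.5 CPM) in 344 wild-type lamina propria cells. The wild-type level was 6.89 times the level that 3 UMIs would give in Csf2-/- SILT, and 11.1 times in Csf2-/- lamina propria. These folds leave out the counting error of the wild-type level. Of 9 members tested in SILT cDC2-like cells, 1 was at least 1.5-fold lower in Csf2-/- (Itgae), where 7.73% of all genes were. In lamina propria 2 of 9 were (Itgae and Itgav), where 11.2% of all genes were. In the dividing cluster Itgae had 3.74 CPM (2 UMIs in 37 cells) in Csf2-/- SILT, against 44.6 CPM (97 UMIs in 228 cells) in wild-type SILT, a ratio of 0.0839 (0.0100 to 0.311), with an Itgae UMI in 5.41% of cells against 10.1%. In lamina propria it had 3.08 CPM (2 UMIs in 33 cells) in Csf2-/-, against 10.1 CPM (15 UMIs in 69 cells) in wild type, a ratio of 0.306 (0.0340 to 1.32), but a single wild-type cell held 12 of the 15 UMIs. The share of these cells with an Itgae UMI was 6.06% in Csf2-/- lamina propria against 4.35% in wild-type lamina propria, so that in lamina propria the share and the level had opposite orders. The cells of that cluster were deeper in Csf2-/- SILT, with a median of 15240 UMIs against 4144.5 in wild-type SILT.

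Migratory dendritic cell-like cells, which express Ccr7, the receptor that leads dendritic cells to lymphoid tissue, also carried Itgae. Itgae stood at 88.4 CPM (59.7 to 126, 41 cells) in Csf2-/- SILT, against 136 CPM (115 to 160, 166 cells) in wild-type SILT, and the intervals overlapped. The ratio was 0.649 (0.423 to 0.965), which placed Itgae, with Itgam, past 1.5-fold lower among 6 members tested, where 13.5% of all genes were. Lamina propria held only 2 Csf2-/- and 12 wild-type cells of the class, too few to compare. After thinning to 1000 UMIs the SILT ratio of Itgae was 0.984, and as a mean over cells the log2 ratio of Itgam was 0.75.

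Itgb7, the beta chain that pairs with Itgae and Itga4, did not go with Itgae between genotypes. Itgb7 (chr15:102215995-102231944, minus strand) was high in cDC1- and cDC2-like cells and in a cluster of cytotoxic lymphocyte genes. In cDC1-like cells it had 271 CPM in Csf2-/- SILT against 152 CPM in wild-type SILT, and 331 CPM in Csf2-/- lamina propria against 324 CPM in wild-type lamina propria. The Csf2-/- over wild-type ratio was 1.78 (1.45 to 2.18) in SILT and 1.02 (0.802 to 1.31) in lamina propria, so the wild-type SILT library was low and the other 3 lay between 271 and 331 CPM. In cDC2-like cells it had 248 CPM in Csf2-/- SILT against 177 CPM in wild-type SILT, and 297 CPM in Csf2-/- lamina propria against 252 CPM in wild-type lamina propria. Macrophage-like cells had 12.4 to 16.7 CPM.

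Within single cells the chains of the CD103 integrin met in cDC1-like but seldom in migratory cells. Over all libraries, 86.2% (77.5 to 92.4) of the 94 cDC1-like cells with an Itgae UMI also had an Itgb7 UMI, against 12.8% (4.83 to 25.7) of the 47 such migratory dendritic cell-like cells. The shares were close to those of cells without an Itgae UMI, 89.5% (82.0 to 94.7) of 105 cDC1-like and 12.1% (7.63 to 17.9) of 174 migratory cells. Depth differed as well, with a median of 2224 UMIs in Csf2-/- SILT and 3092.5 UMIs in wild-type SILT migratory cells, and its part was not tested. The level in the class sum was 38.3 CPM of Itgb7 in Csf2-/- SILT and 23.3 CPM in wild-type SILT migratory cells, under the 152 CPM of the lowest cDC1-like library.

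**Figure D2:**
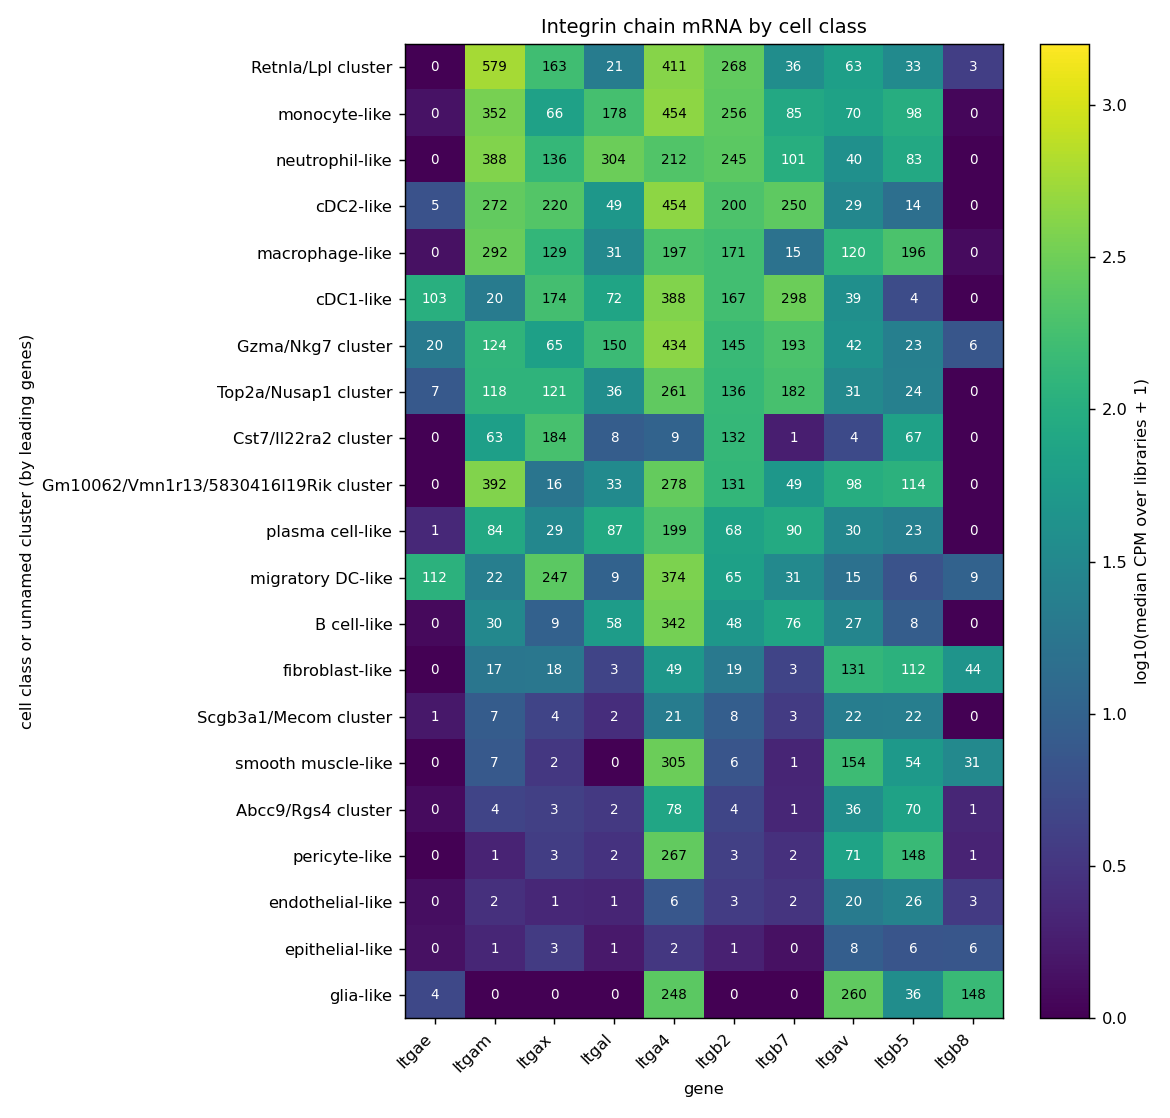
Median CPM over libraries of each of the 10 genes (columns) in each cell class or unnamed cluster (rows), as a colour of log10(median CPM + 1) with the median CPM printed in each cell. Rows are sorted by Itgb2, so that the leukocyte classes stand at the top, where Itgb8 is at or near 0.

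Itgb2, the shared beta chain of LFA-1, Mac-1 and CD11c/CD18, was present in every leukocyte class. Itgb2 (chr10:77530252-77565708, plus strand) had 154 CPM in Csf2-/- SILT macrophage-like cells against 124.7 CPM in wild-type SILT, and 188 CPM in Csf2-/- lamina propria against 197 CPM in wild-type lamina propria. In monocyte-like cells it had 235 CPM in Csf2-/- SILT against 168 CPM in wild-type SILT, and 284 CPM in Csf2-/- lamina propria against 278 CPM in wild-type lamina propria. In both classes the lamina propria libraries lay close together and wild-type SILT was lowest. In cDC2-like cells Itgb2 was 1.51-fold (1.30 to 1.75) the wild-type level in Csf2-/- SILT, where 11.9% of all genes were at least 1.5-fold higher, and 1.08-fold (0.977 to 1.19) in Csf2-/- lamina propria.

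Itgam and Itgax lie next to each other on chromosome 7, with 11056 bases between the end of Itgam (chr7:128062640-128118491, plus strand) and the start of Itgax (chr7:128129547-128150657, plus strand). Their levels had a Pearson r of 0.85 over the 47 sums of a class in a library described at the end, as a description. Those sums include classes low in both, such as blood endothelial-like cells. Among myeloid classes, cDC2-like cells were high in both. They parted in cDC1-like cells, where Itgam had 12.6 to 22.8 CPM, against 196 to 371 CPM in cDC2-like cells, and Itgax had 151 to 201 CPM, against 199 to 281 CPM in cDC2-like cells. Migratory dendritic cell-like cells of SILT had 17.7 CPM (Csf2-/-) and 26.9 CPM (wild type) of Itgam, against 236 and 258 CPM of Itgax. Monocyte-like cells had the other order, with 271 to 433 CPM of Itgam and 59.0 to 75.7 CPM of Itgax. The 250 bases before the RefSeq starts of Itgam and Itgax, with those of Itgb7, are shown because the neighbours differed in cDC1-like cells and Itgb7 was high in dendritic cells and lymphocytes. The RefSeq starts of Itgax and Itgb7 lie a few bases inside the GENCODE positions given here, so these windows reach slightly into the GENCODE genes. Sequences are from RefSeq (GRCm38.p6), 5′ to 3′ on the strand of the gene, with matches to GAGGAA, a core of sites for the myeloid factor PU.1, or its reverse complement TTCCTC in capitals. They cover chr7:128062390-128062639 for Itgam, chr7:128129300-128129549 for Itgax and chr15:102231936-102232185 for Itgb7.
Itgam: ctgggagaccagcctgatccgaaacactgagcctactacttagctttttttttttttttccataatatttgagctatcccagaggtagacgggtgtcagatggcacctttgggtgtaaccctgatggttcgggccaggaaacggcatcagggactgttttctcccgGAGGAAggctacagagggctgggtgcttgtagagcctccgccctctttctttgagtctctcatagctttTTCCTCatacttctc
Itgax: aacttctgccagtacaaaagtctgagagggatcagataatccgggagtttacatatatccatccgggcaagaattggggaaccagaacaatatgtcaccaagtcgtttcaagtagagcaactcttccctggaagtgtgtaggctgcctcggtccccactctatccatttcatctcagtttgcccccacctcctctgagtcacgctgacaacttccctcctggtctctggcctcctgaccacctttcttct
Itgb7: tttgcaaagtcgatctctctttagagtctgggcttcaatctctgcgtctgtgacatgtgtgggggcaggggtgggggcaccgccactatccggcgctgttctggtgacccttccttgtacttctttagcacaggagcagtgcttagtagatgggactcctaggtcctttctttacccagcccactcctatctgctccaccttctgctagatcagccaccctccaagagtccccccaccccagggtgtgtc
The Itgam window held 2 matches, starting 84 and 15 bases before the gene, and the Itgax and Itgb7 windows held none. Of the 7 members with a RefSeq promoter in the table, 2 held GAGGAA on either strand (Itgam and Itgav), and 23.3% of 32851 promoters of the same length did. TGTGGT, a core of sites for RUNX factors, was in 1 of 7 (Itga4) and in 14.0% of all. A match is a description of letters, not a bound site.

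Itgam, the CD11b chain on which the cells were selected, was high in monocyte-, macrophage-, neutrophil- and cDC2-like cells and low in cDC1-like cells. Macrophage-like cells had 279 CPM in Csf2-/- SILT against 265 CPM in wild-type SILT, and 304 CPM in Csf2-/- lamina propria against 405 CPM in wild-type lamina propria. cDC2-like cells had 235 CPM in Csf2-/- SILT against 196 CPM in wild-type SILT, and 308 CPM in Csf2-/- lamina propria against 371 CPM in wild-type lamina propria. cDC1-like cells had 12.6 to 22.8 CPM. In the wild-type libraries the highest level of any class was in the cluster led by Retnla, Lpl and Cd226, at 428 CPM in wild-type SILT and 730 CPM in wild-type lamina propria, and Csf2-/- libraries held only 5 and 9 cells of it. In blood endothelial-like cells Itgam stood at 0.425 to 4.48 CPM. Over all libraries 73.3% of 5961 cells with an Itgam UMI also had an Itgb2 UMI. A second annotated gene on the same strand, Gm49368, overlaps Itgam and is absent from the count tables, and how reads shared by both were counted is not given in the sources used here.

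Itgax (CD11c) was carried by all dendritic cell classes and, among macrophage-like cells, mainly by 1 of 3 clusters. Levels were 236 CPM in Csf2-/- SILT and 258 CPM in wild-type SILT migratory dendritic cell-like cells. In cDC2-like cells they were 209 CPM in Csf2-/- SILT against 232 CPM in wild-type SILT, and 199 CPM in Csf2-/- lamina propria against 281 CPM in wild-type lamina propria. The macrophage-like cluster led by Mmp13, H2-M2 and Gbp2b had 283 CPM in Csf2-/- SILT against 294 CPM in wild-type SILT, and 349 CPM in Csf2-/- lamina propria against 356 CPM in wild-type lamina propria. The cluster led by Lyve1, Fcna and Cbr2 had 21.8 CPM in Csf2-/- SILT against 13.5 CPM in wild-type SILT, and 7.23 CPM in Csf2-/- lamina propria against 10.0 CPM in wild-type lamina propria. The third cluster, led by Ccl12, Ccl7 and Ccl2, lay between them at 26.3 to 69.7 CPM, and no 2 of the 3 overlapped in any library.

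In the whole macrophage-like class, whose makeup of clusters differed between libraries, Itgax had 152 CPM in Csf2-/- SILT against 139 CPM in wild-type SILT, and 120.3 CPM in Csf2-/- lamina propria against 57.4 CPM in wild-type lamina propria. The ratio was 1.10 (1.01 to 1.19) in SILT and 2.096 (1.86 to 2.36) in lamina propria. Within the Mmp13 cluster the same ratio was 0.961 (0.879 to 1.05) in SILT and 0.980 (0.861 to 1.12) in lamina propria, and within the Lyve1 cluster 1.61 (1.10 to 2.34) in SILT and 0.720 (0.371 to 1.28) in lamina propria. Within the cluster led by Ccl12, Ccl7 and Ccl2 it was 0.740 (0.459 to 1.15) in SILT and 0.422 (0.239 to 0.699) in lamina propria, so the clusters did not share 1 direction. The Mmp13 cluster made up 197 of 501 macrophage-like cells in Csf2-/- SILT, 387 of 1267 in wild-type SILT, 91 of 376 in lamina propria of Csf2-/- mice and 95 of 1119 in that of wild-type mice. The Lyve1 cluster made up 252, 751, 223 and 866 cells in the same order of libraries. The SILT over lamina propria ratio of Itgax was 2.41 (2.22 to 2.62) for wild-type macrophage-like cells as a whole and 0.826 (0.751 to 0.911) within the wild-type Mmp13 cluster. With the 3 clusters at equal weight, the ratio of Csf2-/- over wild type in lamina propria was 0.893 and that of SILT over lamina propria in wild type 0.881.

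**Figure D3:**
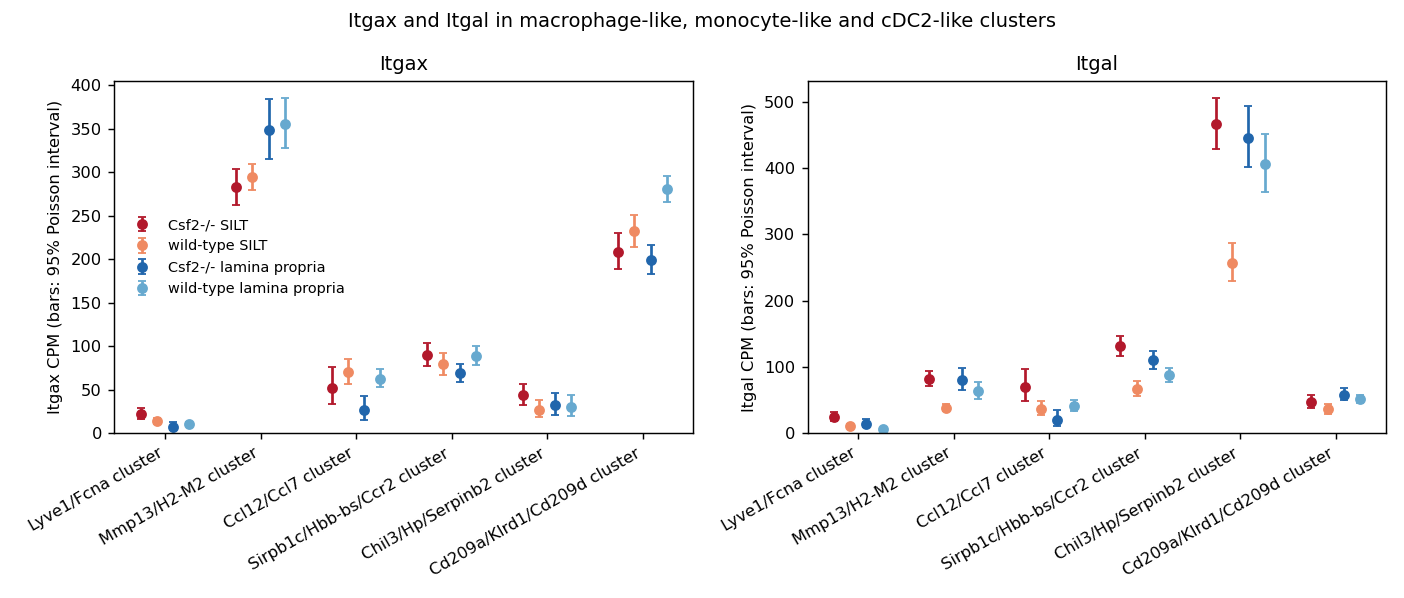
Itgax (left) and Itgal (right) in CPM for the clusters of macrophage-, monocyte- and cDC2-like cells, 1 point per library with its exact 95% Poisson interval. Itgax separates the Mmp13 cluster, at 283 to 356 CPM, from the Lyve1 cluster, at 7.23 to 21.8 CPM, in every library.

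Itgal, the alpha chain of LFA-1, was highest in monocyte- and neutrophil-like cells. It was higher in Csf2-/- than in wild-type SILT in 9 of 9 classes with enough counts, all from the same pair of libraries. Itgal (chr7:127296260-127335138, plus strand) had 251 CPM in Csf2-/- SILT monocyte-like cells against 137 CPM in wild-type SILT, and 197 CPM in Csf2-/- lamina propria against 159 CPM in wild-type lamina propria. Macrophage-like cells had 56.7 CPM in Csf2-/- SILT against 25.3 CPM in wild-type SILT, and 36.4 CPM in Csf2-/- lamina propria against 18.3 CPM in wild-type lamina propria. Both Csf2-/- libraries were above their wild-type counterparts in both classes. The macrophage ratio was 2.24 (1.91 to 2.63) in SILT and 1.99 (1.60 to 2.46) in lamina propria, and the monocyte ratio 1.83 (1.63 to 2.06) in SILT and 1.24 (1.11 to 1.39) in lamina propria. With the 3 macrophage-like clusters at equal weight the lamina propria macrophage ratio was 1.03, and with each library clustered alone the SILT monocyte ratio was 0.943.

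Over the 9 classes of SILT the ratio ran between 1.30 and 3.03, 6 were past 1.5-fold, and in the other 3 the interval held 1. Over 6 classes of lamina propria it ran between 0.720 and 1.99, above 1 in 5 of them. In SILT the ratio was also above 1 for Itgav in 11 of 12 classes, Itgb2 in 11 of 13, Itgb7 in 9 of 10 and Itgb5 in 8 of 10. For Itgam this held in 7 of 12, Itgax 6 of 12, Itga4 4 of 14, Itgae 0 of 4 and Itgb8 0 of 1. All these classes share the same pair of libraries, and the like counts over all genes are not given here. The median ratio of all genes in SILT was also above 1, at 1.05 in macrophage-like, 1.09 in monocyte-like, 1.03 in cDC2-like and 1.03 in cDC1-like cells. Itgal in cDC1-like cells had 79.9 CPM in Csf2-/- SILT against 26.4 CPM in wild-type SILT, a ratio of 3.03 (1.95 to 4.76), and 97.4 CPM in Csf2-/- lamina propria against 64.9 CPM in wild-type lamina propria, a ratio of 1.501 (0.895 to 2.62). After thinning to 1000 UMIs per cell the SILT log2 ratio of that class turned to -0.58. In the cluster led by Gzma, Nkg7 and Trbc2, genes of cytotoxic lymphocytes, it had 202 CPM in Csf2-/- SILT against 97.0 CPM in wild-type SILT. B cell-like cells had 74.6 CPM in Csf2-/- SILT against 41.3 CPM in wild-type SILT. Past 1.5-fold higher in Csf2-/- SILT were 3 of 8 members in cDC1-like cells (12.5% of all genes) and 4 of 7 in the Gzma cluster (16.0% of all genes), with Itgal among them both times.

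Itgal differed among the macrophage-like clusters too. The Lyve1 cluster had 24.6 CPM in Csf2-/- SILT against 10.97 CPM in wild-type SILT, and 13.9 CPM in Csf2-/- lamina propria against 6.35 CPM in wild-type lamina propria, with ratios of 2.24 (1.53 to 3.27) and 2.19 (1.33 to 3.51). The Mmp13 cluster had 81.6 CPM in Csf2-/- SILT against 38.5 CPM in wild-type SILT, and 80.5 CPM in Csf2-/- lamina propria against 63.6 CPM in wild-type lamina propria. The cluster led by Ccl12, Ccl7 and Ccl2 had 69.4 CPM in Csf2-/- SILT against 36.0 CPM in wild-type SILT, but 20.1 CPM in Csf2-/- lamina propria against 40.8 CPM in wild-type lamina propria. Csf2-/- was thus higher in 3 of 3 clusters of SILT and 2 of 3 of lamina propria. Marker genes of monocytes, which carry more Itgal, summed to 361 CPM in Csf2-/- SILT and 229 CPM in wild-type SILT macrophage-like cells, and to 200.1 CPM in Csf2-/- lamina propria and 166 CPM in wild-type lamina propria ones. None of the 12 monocyte markers was at 0, and their part in the difference was not tested.

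**Figure D4:**
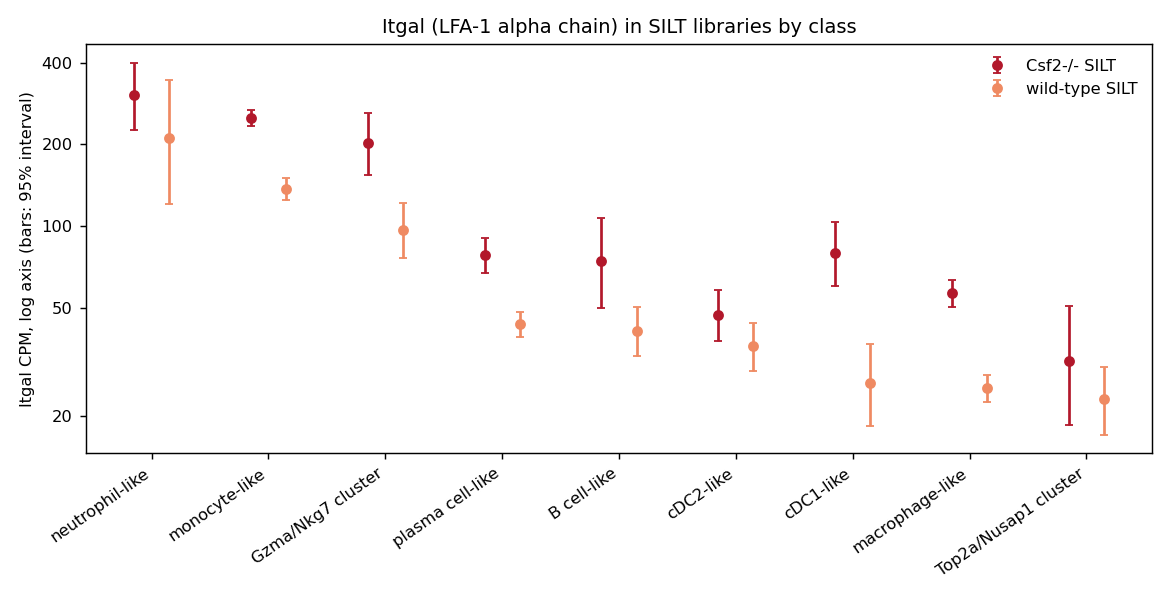
Itgal in CPM on a log axis for each SILT class with at least 30 Itgal UMIs, with exact 95% Poisson intervals. The Csf2-/- point lies above the wild-type point in 9 of 9 classes, all from the same pair of libraries, and ratios run between 1.30 and 3.03.

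Itga4, which pairs with beta7 or beta1 to bind MAdCAM-1 and VCAM-1, was broad, present in dendritic, monocyte-, B cell-, glia- and pericyte-like cells, and lower in Csf2-/- than in wild-type lamina propria in 10 of 10 classes tested. Itga4 (chr2:79255426-79333123, plus strand) had 380 CPM in Csf2-/- SILT cDC2-like cells against 430 CPM in wild-type SILT, and 479 CPM in Csf2-/- lamina propria against 588 CPM in wild-type lamina propria. In cDC1-like cells it had 353 CPM in Csf2-/- SILT against 422 CPM in wild-type SILT, and 353 CPM in Csf2-/- lamina propria against 567 CPM in wild-type lamina propria. In lamina propria the Csf2-/- over wild-type ratio was 0.623 (0.509 to 0.763) in cDC1-like, 0.699 (0.652 to 0.7502) in monocyte-like, 0.718 (0.661 to 0.779) in macrophage-like and 0.814 (0.763 to 0.868) in cDC2-like cells. That of cDC1-like cells turned to a log2 ratio of 0.33 after thinning. The median ratio of all genes in lamina propria was 0.969 in cDC1-like, 1.01 in monocyte-like, 0.963 in macrophage-like and 0.963 in cDC2-like cells. Of the 10 classes, 4 were at least 1.5-fold lower and 2 had an interval that held 1, and all rest on the same pair of libraries. The like count over all genes is not given here. In SILT the Itga4 ratios were 0.835 in cDC1-like, 0.905 in monocyte-like, 0.960 in macrophage-like and 0.883 in cDC2-like cells. The interval of macrophage-like cells reached 1 (0.891 to 1.03).

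Itgav and Itgb5, the chains of the vitronectin receptor alphaV-beta5, were among the leukocytes highest in macrophage-like cells, and there both were higher in Csf2-/-. Itgav (chr2:83724397-83806916, plus strand) had 140.3 CPM in Csf2-/- SILT macrophage-like cells against 91.4 CPM in wild-type SILT, and 137 CPM in Csf2-/- lamina propria against 102 CPM in wild-type lamina propria. Itgb5 (chr16:33829665-33949338, plus strand) had 226 CPM in Csf2-/- SILT macrophage-like cells against 138 CPM in wild-type SILT, and 246 CPM in Csf2-/- lamina propria against 166 CPM in wild-type lamina propria. The Csf2-/- over wild-type ratios were 1.54 (1.40 to 1.69) for Itgav and 1.64 (1.52 to 1.77) for Itgb5 in SILT, and 1.35 (1.21 to 1.49) for Itgav and 1.48 (1.37 to 1.60) for Itgb5 in lamina propria. Itgb5 in SILT stayed past 1.5-fold under 14 of 14 alternatives, Itgav under 8 of 14, with a lowest ratio of 1.42. Monocyte-like cells of SILT had ratios of 1.65 (1.32 to 2.06) for Itgav and 2.05 (1.69 to 2.51) for Itgb5.

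The Itgb5 ratio was 1.64 (1.44 to 1.87) in the Lyve1 cluster and 1.54 (1.40 to 1.70) in the Mmp13 cluster of SILT, against 1.18 (1.04 to 1.33) and 1.16 (1.02 to 1.31) in those of lamina propria. The Mmp13 cluster, which made up more of the class in Csf2-/- than in wild-type lamina propria, had more Itgb5 than the class as a whole, at 279 CPM in Csf2-/- SILT, 180 CPM in wild-type SILT, 396 CPM in lamina propria of Csf2-/- mice and 341 CPM in that of wild-type mice. In single cells, 80.0% of 1615 macrophage-like cells with an Itgav UMI also had an Itgb5 UMI, against 53.3% of the macrophage-like cells without one, with no correction for depth.

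Itgb8, the partner with which alphaV activates TGF-beta, was close to absent from these myeloid cells. Itgb8 (chr12:119158022-119238802, minus strand) had 0 UMIs in all 199 cDC1-like cells and 1 UMI over all cDC2-like cells. In cDC1-like cells the exact interval reached 2.78 CPM in wild-type SILT, and between 5.27 and 12.0 CPM in the other libraries. Macrophage-like cells had 0.19 to 0.556 CPM. Levels were clear in glia-like cells, at 148 CPM in wild-type SILT, in fibroblast-like cells, at 38.1 CPM in Csf2-/- SILT, 44.97 CPM in wild-type SILT and 44.1 CPM in wild-type lamina propria, and in smooth muscle-like cells, at 22.0 CPM in wild-type SILT and 40.4 CPM in wild-type lamina propria. The migratory dendritic cell-like class had 14.7 CPM in Csf2-/- SILT (5 UMIs) and 3.59 CPM in wild-type SILT (4 UMIs).

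Counted over the set, 3 of 8 members with enough UMIs were at least 1.5-fold higher in macrophage-like cells of Csf2-/- SILT than of wild-type SILT (Itgal, Itgav and Itgb5) and 0 were lower, where 8.83% of 11245 genes were higher and 6.41% lower. In lamina propria 2 of 8 were higher in Csf2-/- (Itgax and Itgal) and 0 lower, where 6.3% of 11304 genes were higher and 11% lower. The median log2 ratio of the 8 members was 0.33 in SILT, with 0.06 over all genes, and 0.33 in lamina propria, with -0.05 over all genes. In monocyte-like cells 3 of 8 were higher in Csf2-/- SILT (Itgal, Itgav and Itgb5), where 14.3% of all genes were, and 0 of 8 were in lamina propria, where 5.62% were.

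**Figure D5:**
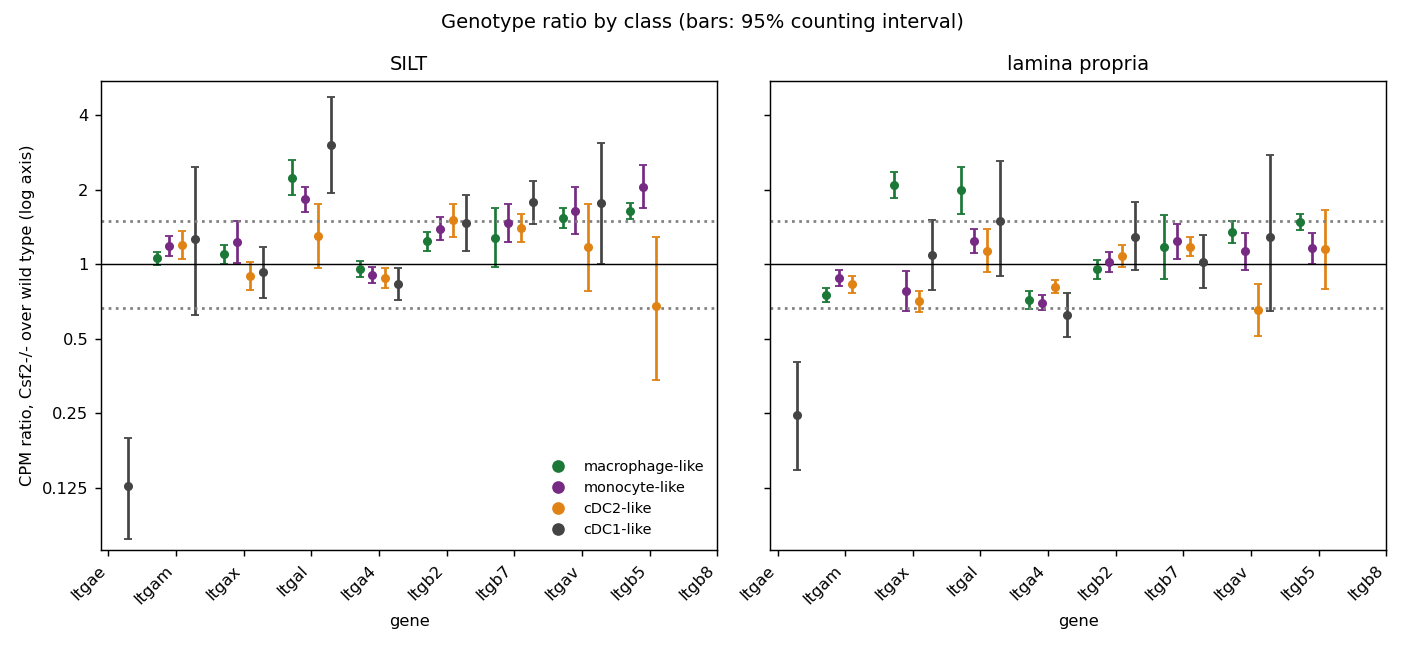
Ratio of CPM, Csf2-/- over wild type, for each gene in 4 classes of SILT (left) and lamina propria (right) on a log axis, with exact 95% counting intervals; dotted lines mark 1.5-fold. Genes under 30 UMIs over both libraries and Itgae in cDC2-like cells, at 0 UMIs in Csf2-/-, are not drawn, and the Itgae ratio of cDC1-like cells, 0.128 in SILT and 0.247 in lamina propria, lies lowest in each panel.

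Between tissues, wild-type macrophage-like cells of SILT had 1 of 8 members at least 1.5-fold higher than those of lamina propria (Itgax, 9.59% of all genes) and 2 lower (Itgam and Itgb2, 24.9% of all genes). The Itgam ratio was 0.654 (0.626 to 0.682) and the Itgb2 ratio 0.632 (0.594 to 0.673). Itgam stayed past 1.5-fold under 7 of 14 alternatives and Itgb2 under 11. In Csf2-/- mice, with neither library the wild-type SILT one, 1 of 8 was higher in SILT (Itgal, ratio 1.56, 1.26 to 1.93; 4.07% of all genes) and 0 were lower (6.13% of all genes). There the Itgam ratio was 0.920 (0.850 to 0.996) and the Itgb2 ratio 0.820 (0.740 to 0.910). Itgam in cDC2-like cells had a SILT over lamina propria ratio of 0.761 (0.677 to 0.853) in Csf2-/- and 0.529 (0.480 to 0.583) in wild type.

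Among ligands of these integrins, macrophage-like cells of Csf2-/- SILT had 4 of 11 measured at least 1.5-fold higher than wild-type SILT and 3 lower, where 8.83% of all genes were higher and 6.41% lower, with a median log2 ratio of 0.30 for the ligands and 0.06 over all genes. Icam1, a ligand of LFA-1 and Mac-1, had 70.2 CPM in Csf2-/- SILT against 46.3 CPM in wild-type SILT. Fibronectin (Fn1) had 58.2 CPM in Csf2-/- SILT against 14.7 CPM in wild-type SILT, and osteopontin (Spp1) 17.4 CPM in Csf2-/- SILT against 2.095 CPM in wild-type SILT. The fourth was the junction protein F11r, at 90.4 CPM in Csf2-/- SILT against 53.3 CPM in wild-type SILT. Lower were Icam2, Jam2 and Jam3, each under 5 CPM, which endothelium also expresses. Blood endothelial marker genes summed to 49.7 CPM in Csf2-/- SILT macrophage-like cells and 187 CPM in wild-type SILT ones, with 1 of 10 markers at 0 (Cldn5) in the first, and their part was not tested. In lamina propria 4 of 12 ligands were higher in Csf2-/- (Icam1, Vcam1, Spp1 and F11r) and 4 lower (Fn1, Jam2, Jam3 and Lrrc32), where 6.3% of all genes were higher and 11% lower. Vcam1, the ligand of alpha4 integrins, had 132 CPM in Csf2-/- lamina propria against 64.3 CPM in wild type, and Fn1 had 11.7 CPM in Csf2-/- lamina propria against 20.6 CPM in wild type, opposite to SILT.

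In the TGF-beta pathway list, 2 of 14 genes were at least 1.5-fold higher in Csf2-/- SILT macrophage-like cells (Smad3 and Runx3) and 0 lower, where 8.83% of all genes were higher and 6.41% lower. In lamina propria 2 of 15 were lower (Tgfbr3 and Eng), where 11% of all genes were. Runx3, a transcription factor downstream of TGF-beta, was past 1.5-fold higher in both tissues, at 262 CPM in Csf2-/- SILT against 171 CPM in wild-type SILT and 201 CPM in Csf2-/- lamina propria against 87.7 CPM in wild-type lamina propria. Smad7, the inhibitor that TGF-beta induces, had 77.9 CPM in Csf2-/- SILT against 63.7 CPM in wild-type SILT, and 71.7 CPM in Csf2-/- lamina propria against 33.2 CPM in wild-type lamina propria. Of 13 genes measured that switch integrins on from inside the cell, 1 was lower in Csf2-/- SILT (Fermt2) and 0 higher, and of 16 that relay their signals, 1 was lower (Ptk2) and 0 higher. Both counts are near or below the shares of all genes, 6.41% lower and 8.83% higher. In lamina propria 1 of 13 activators was lower (Fermt2) and 0 higher, where 11% of all genes were lower and 6.3% higher.

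Few of the other integrin chains were measured. Of 17 such genes, 6 were measured in SILT macrophage-like cells, and 1 was past 1.5-fold (lower in Csf2-/-, where 6.41% of all genes were), Itga1, a collagen receptor chain, at 9.67 CPM in Csf2-/- against 18.3 CPM in wild type. Itgb1, the chain shared by most other integrins, had 299.6 CPM in Csf2-/- SILT against 424 CPM in wild-type SILT, and 332 CPM in Csf2-/- lamina propria against 559 CPM in wild-type lamina propria. Its Csf2-/- over wild-type ratio was 0.706 (0.667 to 0.747) in SILT and 0.593 (0.558 to 0.631) in lamina propria. Of 5 other chains measured in lamina propria, Itgb1 was thus 1 past 1.5-fold lower, where 11% of all genes were, and Itga6, a laminin receptor chain, was 1 past 1.5-fold higher, where 6.3% were, at 56.7 CPM in Csf2-/- against 34.98 CPM in wild type.

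Over 47 sums of a class in a library, from 19 classes, 1 gene per member is named here as the most like it in log2 level. The sums share libraries and classes, so the coefficients are descriptions. Itgb2 was the gene most like Itgam (Pearson r = 0.96 among 13330 genes), and Laptm5, a lysosomal protein of blood cells, the most like Itgb2 (0.97). Batf3, a transcription factor that cDC1 need, was the most like Itgax (0.94), Spn, the sialophorin CD43, the most like Itgal (0.91), Pim1 the most like Itgb7 (0.94) and Dock10 the most like Itga4 (0.89). Lamp2, a lysosomal membrane protein, was the most like Itgb5 (0.87), Lrp1, a scavenger receptor, the most like Itgav (0.83), and Gpr141b the most like Itgae (0.77). For Itgb8 it was Lrrn2 (0.83).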

How the data were processed

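The deposited files hold raw UMI counts per gene and cell barcode, as sparse matrices of 32285 features, 1 matrix per library and 1 library per group. Per the labels' protocols, CD11b-selected colon cells were captured with 10x chemistry version 2. The submitters' processing notes name Cell Ranger 2.1.1 and mm10, and the file headers name Cell Ranger 6.0.0. Deposited barcodes numbered 2578 in Csf2-/- SILT, 8041 in wild-type SILT, 2158 in lamina propria of Csf2-/- mice and 5128 in that of wild-type mice, none under 500 UMIs.

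Barcodes under 200 genes or over 10% mitochondrial UMIs were dropped, Scrublet doublets removed (10, 136, 7 and 52 in the same order), and free RNA was not subtracted. Cells were clustered with scanpy 1.11.5 and leidenalg 0.10.2 (2000 variable genes without the 27 integrin genes, 30 principal components, 15 neighbours, resolution 1). Clusters were named by the class with most markers at least 2-fold above the other cells and in at least 10% of the cluster, at least 3 of them, whether or not these were among its 10 leading genes. Clusters tied or nearly so between classes, led by another class's markers, or shallow with no marker of the class among the 10 leading genes stayed unnamed. UMIs were then summed per class and library (scipy 1.17.1). A gene was compared with at least 30 UMIs over both libraries and 20 cells in each, and 1.5-fold counted as a difference. The 10 members are always named; for each, the genes most like it came from Pearson correlation of log2(CPM + 1) over sums of at least 50 cells, and genes of the fixed lists are named where 1.5-fold apart. The members, lists and markers were chosen with earlier results of these data known. Gene positions are those of GENCODE on GRCm38. Alternatives covered filters, doublets, clustering, thinning to 1000 UMIs, TMM factors (edgeR 4.0.16), a C1q gate, class weights, the single cell with most UMIs, and thresholds. Intervals were checked on simulated Poisson counts, the same assumption on which they are built. That check cannot show how they hold where UMIs gather in single cells. Some results of the fixed lists in lamina propria are not reported here.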

Additional observations from a re-analysis of the deposited data

Results flagged for a closer look

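For 3 results the Csf2-/- over wild-type ratio of CPM had opposite directions in SILT and lamina propria, with both counting intervals clear of 1. With 1 library a group the difference between tissues was not tested. Itgam in cDC2-like cells had a ratio of 1.19 in SILT and 0.831 in lamina propria. Itgam in monocyte-like cells had a ratio of 1.19 in SILT and 0.884 in lamina propria. Itgax in monocyte-like cells had a ratio of 1.23 in SILT and 0.779 in lamina propria. None of the 6 ratios reached 1.5-fold. All 3 SILT ratios use the wild-type SILT library, in which most of these genes were low: the median ratio of all genes was 1.09 in monocyte-like and 1.03 in cDC2-like cells of SILT, against 1.01 and 0.963 in those of lamina propria.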

How the results depend on the processing

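No paired analysis was possible because each group is 1 library. The lower Itgae level of Csf2-/- cDC1-like cells kept its direction in SILT under 13 alternatives, with a log2 ratio between -3.19 and -2.58. In lamina propria it kept its direction under 11, between -2.06 and -0.47; the values nearest 0, -0.47 under the stricter cell filter and -0.77 at Leiden resolution 2, came from classes that took in 55 and 62 wild-type cells of the dividing cluster. Itgal in macrophage-like cells of SILT stayed past 1.5-fold under all 14 alternatives run, between 0.65 and 1.61 on the log2 scale. Of 128 counts of macrophage members under an alternative, 96 were within 1.5 times the reported count and 32 were not. For those 32, and for each reversal, the cause was not tested unless stated.

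Members higher in Csf2-/- SILT were 3 as reported, 7 in cells with at least 2 C1q UMIs and 1 at a 2-fold threshold, and 2 in place of 0 were lower in the C1q gate. In lamina propria the 2 higher members became 4 at Leiden resolution 0.5, 0 with clusters at equal weight, 1 in the C1q gate and 1 at 2-fold, and lower members became 1 with doublets kept, 2 in the C1q gate and 1 with a floor of 10 UMIs. For SILT over lamina propria in wild type the 1 higher member became 2 under the stricter filter, with doublets kept, after thinning and with TMM factors, 3 at Leiden resolution 0.5 and with each library clustered alone, and 0 at equal weight. The 2 lower members became 1 under the stricter filter, at Leiden resolution 0.5 and as a mean over cells, 0 after thinning, with TMM factors and at 2-fold, and 6 in the C1q gate. In Csf2-/- the 1 higher member became 2 under the stricter filter, with doublets kept, at Leiden resolution 0.5 and with libraries clustered alone, and 0 at Leiden resolution 2, with integrin genes kept in the clustering, in the C1q gate and at 2-fold.

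Of 504 log2 ratios under an alternative, 425 stayed within the counting interval of the reported value, 71 moved outside it and 8 changed sign. Of 366 levels, 212 stayed within and 154 moved outside. Of 41 ratios of a member in a class past 1.5-fold, 11 were past it under every alternative and 30 missed it under at least 1, among them Itgav in macrophage-like cells of SILT, past it under 8 of 14, and Itga4 in lamina propria cDC1-like cells, under 7 of 11. Itgax in macrophage-like cells went to -0.16 for Csf2-/- over wild type in lamina propria at equal weight, and to -0.18 at equal weight and -0.10 in the C1q gate for SILT over lamina propria in wild type. Itgal went to -0.085 for Csf2-/- over wild type in SILT monocyte-like cells with libraries clustered alone and to -0.58 in SILT cDC1-like cells after thinning. Thinning also took Itga4 in lamina propria cDC1-like cells to 0.33 for Csf2-/- over wild type, and Itgb2 in wild-type cDC1-like cells to 0.67 for SILT over lamina propria. Itgam in SILT migratory dendritic cell-like cells went to 0.75 for Csf2-/- over wild type as a mean over cells. With libraries clustered alone, wild-type lamina propria had no cDC1-like cells and gave no value, and equal weight could not be computed for classes of 1 cluster. Depth limits the small classes most: wild-type lamina propria held 20 cDC1-like cells, where 3 UMIs correspond to 9.73 CPM. No library could be left out, since each group has 1.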
